A study of Mus musculus with 12 samples.

Results

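Genes of glucose uptake and glycolysis were followed in whole bone marrow of irradiated and unirradiated mice with and without DEIX treatment. The set holds 10 listed genes of the 21853 in the deposited table: Slc2a1, Slc2a3, Hk2, Hk3, Pfkl, Aldoa, Pgk1, Eno1, Pkm and Ldha. They were chosen by name, through the gene identifiers of the table matched to GENCODE vM21 symbols, and all 10 were found and passed the filter on low values. Of the 10, 7 were higher in irradiated mice treated with DEIX than in control mice, where 30.0% of all genes tested were called and 16.9% called higher, and no call was lower. The glucose carriers Slc2a1 and Slc2a3 had the largest differences, 2.95-fold and 2.08-fold by group means. No difference of Hk2 passed the test.

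Glycolysis splits glucose into pyruvate in the cytosol and yields ATP without oxygen. Glucose enters through carriers of the SLC2A family, hexokinases trap it as glucose 6-phosphate, and phosphofructokinase sets the pace of the later steps. Lactate dehydrogenase turns pyruvate into lactate and restores NAD. Neutrophils, the most numerous cells of mouse marrow together with their precursors, rely largely on glycolysis for energy, and the transcription factor HIF-1 is a known activator of many of these genes.

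The study profiled RNA from whole bone marrow cells of B6 mice in 4 groups of 3 libraries. Marrow was isolated 14 days after total body irradiation (TBI). The control mice were not irradiated, and no gavage or vehicle is stated for them. The TBI mice received 5 Gy of gamma rays at 0.66 Gy/min and then, by gavage, the vehicle alone (100 µL of olive oil). The TBI+DEIX mice were irradiated and then given DEIX by mouth, and the DEIX mice received DEIX without irradiation. By the title of the series DEIX is deinoxanthin, a carotenoid made by bacteria. The daily dose was 25 mg per kg of body weight over 14 days. Differences of TBI, TBI+DEIX or DEIX from control therefore cannot be told apart from an effect of dosing. Sex and age are not given in the sources used here, and nothing says whether the 3 libraries of a group came from separate mice, so p-values measure only the spread between these libraries.

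Levels are given as FPKM, a unit that divides fragments by transcript length and library size, so genes can be compared with each other. Total reads are unknown. From the steps between low values, the FPKM worth of 1 read, relative to control replicate 1, was about 0.894 to 1.66 in the other groups and 1.51 to 2.35 in TBI+DEIX. By this measure TBI+DEIX replicates 1 and 3 were the shallowest libraries, and DEIX replicate 1 was shallower than TBI+DEIX replicate 2. The within-group SD of log2(FPKM + 1), as a root mean square over tested genes, was 0.44 in TBI+DEIX and 0.20 to 0.25 in the other groups. Libraries of 3 groups stood apart in cell markers: TBI+DEIX replicate 1, with a maturing neutrophil marker sum of 20804 FPKM against 53151 and 51084 in its group, and TBI replicate 1 and DEIX replicate 2, with erythroid marker sums of 13060 and 12236 FPKM against 8580 or less in every other library. In bulk marrow, fewer cells of a type and less RNA per cell cannot be told apart.

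The upstream sequences of 3 members are shown because Pgk1 and Ldha were among the 7 genes that were higher in TBI+DEIX than in control, whereas Hk2 was not, and all 3 carry the HIF core. The letters of this core are ACGTG, or CACGT on the other strand, and are in capitals. Each sequence covers the 250 bases before a RefSeq transcription start on GRCm38.p6, written 5′ to 3′ on the gene's strand. The windows are chrX:106186850-106187099 (plus strand) for Pgk1, chr7:46845554-46845803 (plus strand) for Ldha and chr6:82774455-82774704 (minus strand) for Hk2.
Pgk1: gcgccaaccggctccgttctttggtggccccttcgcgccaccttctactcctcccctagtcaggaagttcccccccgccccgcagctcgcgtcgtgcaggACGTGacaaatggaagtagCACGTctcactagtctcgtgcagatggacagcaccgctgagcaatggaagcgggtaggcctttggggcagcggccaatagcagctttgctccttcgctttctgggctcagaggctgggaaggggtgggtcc
Ldha: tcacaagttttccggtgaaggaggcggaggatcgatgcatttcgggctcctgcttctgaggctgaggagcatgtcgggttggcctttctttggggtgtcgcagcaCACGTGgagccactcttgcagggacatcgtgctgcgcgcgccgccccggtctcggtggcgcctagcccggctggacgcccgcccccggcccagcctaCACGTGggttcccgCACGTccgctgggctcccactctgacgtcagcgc
Hk2: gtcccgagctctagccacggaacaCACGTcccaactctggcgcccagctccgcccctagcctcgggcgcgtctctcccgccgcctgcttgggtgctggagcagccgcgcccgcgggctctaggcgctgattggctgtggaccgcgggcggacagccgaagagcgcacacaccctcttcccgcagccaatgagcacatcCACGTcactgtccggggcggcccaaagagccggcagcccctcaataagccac
In Ldha, 2 of the capital stretches are the E-box CACGTG, which holds the core on both strands, so its 5 matches begin 145, 144, 48, 47 and 34 bases before the start. The matches of Pgk1 began 150 and 131 bases before the start, and those of Hk2 226 and 52 bases before it.

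RefSeq windows were found for 9 of the 10 members, 15 windows in all. The HIF core was present in at least 1 window of 7 of these 9 genes, all but Eno1 and Pfkl, and in 18.5% of the 27025 genes with a window. By window, it was in 8 of the members' 15 and in 16.6% of all 32851. Annotated exon bases lay in 8 of the 15 windows. Windows free of them held the core in 5 genes, namely Aldoa, Hk2, Hk3, Ldha and Pgk1. In Slc2a1 the 216 bases before the first annotated exon hold no core, so its match reaches into the 34 exon bases of the window, and the window of Pkm with the core holds 140 exon bases. The GC box GGGCGG, searched as CCGCCC too, was in windows of 7 of the 9 members and of 35.4% of all genes, or in 9 of 15 and 32.7% of windows. The E-box was in 1 of the 9 members, Ldha, and in 6.86% of all genes. The GATA motif AGATAA, or TTATCT on the other strand, was in no member window, and 11.4% of all genes had it. Hk2, which was called in no contrast of the main fit, thus holds the core, and the windows of Eno1, which was called, do not. A match only describes the letters of a window.

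Averaged over the 12 libraries, Pkm ranked 89 among the 21853 genes, Aldoa 147, Ldha 178, Eno1 184, Pgk1 271, Slc2a3 395 and Hk3 445. The other 3 were far lower, with Hk2 at rank 2983, Pfkl at 5180 and Slc2a1 at 5301. The order of the 4 group means was control, TBI, DEIX, TBI+DEIX, from low to high, in 8 of the 10 genes. In Pfkl the DEIX mean was the highest, and in Hk2 the DEIX mean was the lowest. For these 8 genes the libraries of TBI and DEIX, neighbours in that order, overlapped in all but Slc2a1. Control and TBI libraries did not overlap in 6 of the 8, and DEIX and TBI+DEIX libraries overlapped in 6, all but Slc2a3 and Ldha.

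Slc2a1 encodes the widely expressed glucose carrier GLUT1 (chromosome 4, 119108711 to 119137983, plus strand, GRCm38). Its level was 7.32, 7.26 and 7.55 FPKM in the control libraries and 12.4, 8.96 and 8.59 in TBI. It was 25.7, 19.4 and 20.1 FPKM in TBI+DEIX and 23.1, 17.0 and 15.4 in DEIX. Every DEIX-treated library, irradiated or not, lay above every library without DEIX, and the treated groups overlapped each other. The control mean was 7.38 ± 0.152 FPKM and the TBI mean 9.99 ± 2.12. The means of the treated groups were 21.7 ± 3.47 FPKM with irradiation and 18.5 ± 4.05 without it (SD, n = 3). On the log2(FPKM + 1) scale Slc2a1 rose by 1.20 ± 0.17 (SE) in DEIX against control, with limma adjusted p = 0.00488. It rose by 1.43 ± 0.17 in TBI+DEIX against control, adjusted p = 0.000343, and by 1.05 ± 0.17 in TBI+DEIX against TBI, adjusted p = 0.0146. The last call was lost without TBI replicate 3, where the adjusted p was 0.0849. Against control, TBI alone gave a log2 difference of 0.38 ± 0.17, adjusted p = 0.274, and 0.22 without TBI replicate 1, adjusted p = 0.611.

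Slc2a3 encodes GLUT3, a carrier of high affinity for glucose found on leukocytes and neurons (chromosome 6, 122727809 to 122801640, minus strand). It stood at 126, 129 and 131 FPKM in control and 179.8, 148 and 135 in TBI. It stood at 223, 288 and 292 FPKM in TBI+DEIX and 203, 159 and 204 in DEIX. All 3 TBI+DEIX libraries lay above all other libraries, and the control libraries lay below all others. The mean was 128 ± 2.29 FPKM in control and 268 ± 38.7 in TBI+DEIX (SD, n = 3). Slc2a3 rose by 1.04 ± 0.15 (log2, SE) in TBI+DEIX against control, adjusted p = 0.000795, and by 0.79 ± 0.15 in TBI+DEIX against TBI, adjusted p = 0.0196. The second call was lost without TBI replicate 2, TBI replicate 3 or TBI+DEIX replicate 3, with adjusted p = 0.0506, 0.097 and 0.0686. In DEIX against control the difference was 0.54 ± 0.15, adjusted p = 0.0554. Slc2a1 made up 5.43% ± 0.0822 of the summed FPKM of both carriers in control and 6.05% ± 0.394 in TBI. It made up 7.70% ± 2.29 in TBI+DEIX and 8.97% ± 1.71 with DEIX alone (SD, n = 3), so Slc2a3 was the main carrier by level in each group.

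Hk2 and Hk3 encode hexokinases, which phosphorylate glucose on entry; Hk3 is the form known from myeloid cells. Hk2 (chromosome 6, 82725025 to 82774454, minus strand) was at 27.2, 27.3 and 31.2 FPKM in control and 32.7, 29.8 and 27.9 in TBI. It was at 22.8, 34.9 and 36.2 FPKM in TBI+DEIX and 29.9, 21.9 and 33.8 in DEIX. The 4 groups overlapped, and TBI+DEIX replicate 1 and DEIX replicate 2 were the lowest libraries. The log2 difference of TBI+DEIX from control was 0.10, with a 95% interval from -0.30 to 0.51, and that of DEIX from control was -0.02, from -0.43 to 0.39. None of the 5 contrasts was called for Hk2 in the main fit, and its sign in TBI+DEIX against control and against TBI turned on the TPM scale.

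Hk3 (chromosome 13, 55005985 to 55021385, minus strand) was at 113, 118 and 142 FPKM in control and 174, 151 and 146 in TBI. It was at 139, 235 and 253 FPKM in TBI+DEIX and 203, 135 and 192 in DEIX. TBI+DEIX replicate 1 lay within the control range while the other two libraries of its group lay above all others. Hk3 rose by 0.70 ± 0.23 (log2, SE) in TBI+DEIX against control, adjusted p = 0.0368. This call was lost without any 1 of the 3 control libraries or without TBI+DEIX replicate 2 or 3, with adjusted p from 0.052 to 0.116, and without TBI+DEIX replicate 1 the difference was 0.97, adjusted p = 0.00168. Hk3 carried most hexokinase FPKM, 61.7% ± 2.92 in control and 59.7% ± 2.83 in TBI. Its share was 65.1% ± 6.66 in TBI+DEIX and 65.0% ± 5.36 with DEIX alone (SD, n = 3). The share of Hk2 was 14.2% ± 0.0598 in control, 11.5% ± 0.509 after irradiation alone, 9.84% ± 0.353 in TBI+DEIX and 10.5% ± 1.17 with DEIX alone, and every control library lay above every other library.

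Pfkl encodes the liver-type subunit of phosphofructokinase, the committed step of glycolysis (chromosome 10, 77986947 to 78010083, minus strand). It was at 11.99, 12.7 and 12.2 FPKM in control and 14.4, 14.3 and 14.6 in TBI. It was at 15.5, 14.3 and 15.5 FPKM in TBI+DEIX and 21.6, 16.2 and 15.6 in DEIX. Control libraries lay below all others, and DEIX libraries above all others. Pfkl rose by 0.49 ± 0.11 (log2, SE) in DEIX against control, adjusted p = 0.0306. That call was lost without any 1 of the control libraries or without DEIX replicate 1, with adjusted p from 0.0952 to 0.1. In TBI+DEIX against control the difference was 0.28 ± 0.11, adjusted p = 0.088.

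Aldoa encodes aldolase A, which splits the 6-carbon sugar (chromosome 7, 126795234 to 126800751, minus strand). It was at 370.5, 387 and 483 FPKM in control and 568, 499 and 474 in TBI. It was at 398, 743 and 782 FPKM in TBI+DEIX and 777, 472 and 598 in DEIX. The spread within both treated groups was wide, and each overlapped control because of 1 library, TBI+DEIX replicate 1 or DEIX replicate 2. The log2 difference of TBI+DEIX from control was 0.58 ± 0.26 (SE), adjusted p = 0.122, and without TBI+DEIX replicate 1 it was 0.89, adjusted p = 0.00501. A second identifier with the symbol Aldoa had 0.241 to 0.892 FPKM and was not counted as a member.

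Pgk1 encodes phosphoglycerate kinase, the first step of glycolysis that yields ATP (chromosome X, 106187100 to 106203699, plus strand). It was at 194, 205 and 227 FPKM in control and 291, 244 and 241 in TBI. It was at 312, 321 and 379 FPKM in TBI+DEIX and 369.5, 245 and 308 in DEIX. Control lay below all other libraries, and TBI+DEIX lay above TBI. Pgk1 rose by 0.69 ± 0.16 (log2, SE) in TBI+DEIX against control, adjusted p = 0.00893, and its difference was 0.54 ± 0.16 in DEIX against control, adjusted p = 0.0659.

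Eno1 encodes the main enolase of blood cells (chromosome 4, 150236721 to 150248879, plus strand). It was at 299, 309 and 364 FPKM in control and 453, 379.9 and 368 in TBI. It was at 487, 529 and 579 FPKM in TBI+DEIX and 596, 439 and 482 in DEIX. No control library reached any other library, and TBI and TBI+DEIX did not overlap. Eno1 rose by 0.72 ± 0.16 (log2, SE) in TBI+DEIX against control, adjusted p = 0.00668, and by 0.64 ± 0.16 in DEIX against control, adjusted p = 0.0357. The DEIX call was lost without any 1 of the control libraries, DEIX replicate 1 or DEIX replicate 3, with adjusted p from 0.0717 to 0.147.

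Pkm encodes the pyruvate kinase of tissues other than liver and red cells, which makes pyruvate and ATP (chromosome 9, 59656368 to 59679375, plus strand). Its level, the highest of the 10 members, was 575, 588 and 714 FPKM in control and 899, 713 and 646 in TBI. It was 973, 1126 and 1232 FPKM in TBI+DEIX and 1151, 839 and 979 in DEIX. TBI overlapped control and DEIX, while TBI+DEIX lay above both control and TBI. Pkm rose by 0.83 ± 0.19 (log2, SE) in TBI+DEIX against control, adjusted p = 0.00889. The difference was 0.66 ± 0.19 in DEIX against control, adjusted p = 0.0647, and 0.57 ± 0.19 in TBI+DEIX against TBI, adjusted p = 0.088.

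Ldha encodes the lactate dehydrogenase subunit that favours lactate (chromosome 7, 46841475 to 46855627, plus strand). It was at 311, 339 and 391 FPKM in control and 434, 424 and 405 in TBI. It was at 595, 553 and 594 FPKM in TBI+DEIX and 535, 394 and 412 in DEIX. TBI+DEIX lay above all other libraries and control below them, with TBI and DEIX overlapping in between. Ldha rose by 0.75 ± 0.15 (log2, SE) in TBI+DEIX against control, adjusted p = 0.00395. The difference was 0.46 ± 0.15 in TBI+DEIX against TBI, adjusted p = 0.0742, and 0.36 ± 0.15 in DEIX against control, adjusted p = 0.163. Without DEIX replicate 1 the last value was 0.22, adjusted p = 0.467. Ldha was 93.9% ± 0.835 of the FPKM of Ldha and Ldhb in control and 96.6% ± 0.515 in TBI. The share was 98.01% ± 0.705 in TBI+DEIX and 96.2% ± 0.857 with DEIX alone (SD, n = 3), and every control library had a lower share than every other library.

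**Figure D1:**
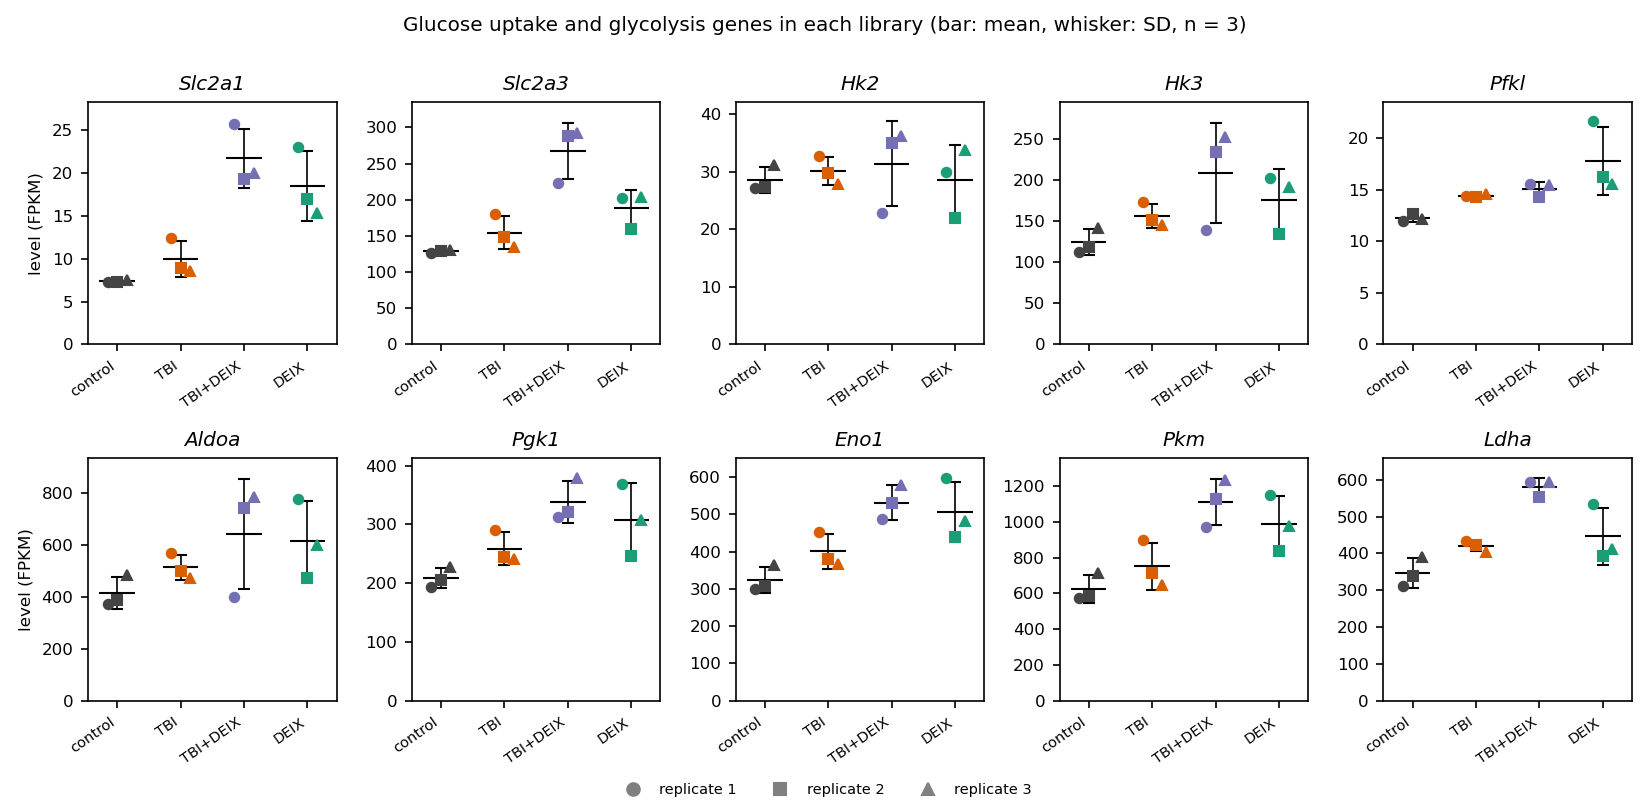
Level of each of the 10 genes in FPKM (vertical axes start at 0) in the 12 libraries by group, with the group mean as a bar and the SD as a whisker (n = 3). Slc2a1 is at 15.4 FPKM or more in all DEIX-treated libraries and at 12.4 or less in the others, while the groups of Hk2 overlap.

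In TBI against control the 10 members had small differences in 1 direction and none was called. The log2 differences ran from 0.08 for Hk2 to 0.38 for Slc2a1, all 10 above 0, with a median of 0.29 beside 0.05 over all 10994 genes tested. TBI replicate 1 had the highest summed level of the members in its group, 3057 FPKM against 2613 and 2465, and a B lineage marker sum of 31.7 FPKM against 302 and 379.8. Without it the median was 0.22, and Slc2a1, Slc2a3, Pkm and Hk2 were at 0.22, 0.14, 0.12 and 0.016, against 0.38, 0.25, 0.26 and 0.08 with it. By limma, 0 of 10 were called at an adjusted p under 0.05, where 3.99% of all genes were called (0.891% higher). Slc2a1 was the 1 member with an unadjusted p under 0.05, beside 18.1% of all genes. The TBI and control libraries did not overlap in 7 of 10, all higher in TBI, against 22.0% of all genes. In this contrast 3 of 5 megakaryocyte markers fell (Itga2b, Pf4 and Ppbp), as did 3 of 10 T and NK cell markers (Cd4, Il7r and Klrb1c) and 2 of 11 B lineage markers (Cd22 and Ms4a1), beside 3.10% of all genes called lower. With limma's array weights, 10 members were called, beside 7017 of all genes, but that estimate did not converge and gave control replicate 2 a weight of 97.5. With weights estimated gene by gene, an alternative chosen after seeing the data, 9 were called, beside 4218 of all genes.

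In DEIX against control, Slc2a1, Pfkl and Eno1 rose. These 3 of 10 calls stand beside 7.24% of all genes called in either direction and 4.52% called higher. The log2 differences ran from -0.02 for Hk2 to 1.20 for Slc2a1, with a median of 0.54 beside 0.02 over all genes, and 9 of 10 were above 0. In 7 of 10 the groups did not overlap, all higher in DEIX, against 23.4% of all genes. In the same contrast 2 of 11 B lineage markers fell (Cd22 and Rag1), as did 1 of 10 genes of the T and NK cell list (Il7r), beside 2.72% of all genes called lower. Of 11 monocyte and macrophage markers 3 rose (Cd14, Fn1 and Vcan). Slc2a1 was called in all 14 alternatives other than array weights (scaling, filter, pseudocount, fitted groups, replicate block and left-out libraries). The number of members called moved with single libraries, as did the calls over all genes, 796 in the main fit. With DEIX replicate 2 left out, 5 members were called, beside 938 of all genes. With replicate 3 of that group left out, 2 were called, beside 218 of all genes. Its replicate 1 left out gave 1 member, beside 165 of all genes. Dropping control replicate 1, 2 or 3 gave 1 member each time, beside 186, 146 and 174 of all genes. On the TPM scale 1 member was called, beside 282 of all genes. There the median of all genes moved by -0.14, and calls that were higher went from 62.4% to 19.1% of all calls. A fit of the compared groups alone called 6 members, beside 2057 of all genes. Either kind of array weights called 9 members, beside 5249 (planned) and 4508 (gene by gene) of all genes.

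In TBI+DEIX against TBI, which compares DEIX with vehicle in irradiated mice, both glucose carriers rose. These 2 of 10 calls stand beside 8.10% of all genes called and 4.69% called higher. All 10 differences were above 0, from 0.03 for Hk2 to 1.05 for Slc2a1, with a median of 0.40 beside 0.00 over all genes; those of Hk2 and Pfkl turned below 0 on the TPM scale. Groups did not overlap in 6 of 10, all higher in TBI+DEIX, against 14.5% of all genes. By limma 6 of 10 had an unadjusted p under 0.05, against 27.2% of all genes. Here 7 of 20 erythroid markers fell, with a median difference of -1.88 over the list, beside 3.41% of all genes called lower. The member count moved with single libraries, as did the count over all genes, 891 in the main fit. Without TBI+DEIX replicate 1 it was 6 (adding Hk3, Pkm, Ldha and Eno1), beside 2836 of all genes. It was 0 without TBI replicate 3, beside 5 of all genes. Leaving out TBI replicate 2 or TBI+DEIX replicate 3 gave 1 member, beside 345 and 51 of all genes. On the TPM scale it was 0, beside 157 of all genes. There the median of all genes moved by -0.12, and higher calls went from 57.9% to 34.4% of all calls. A fit of the compared groups alone called 0 of all 10994 genes, so its 0 members say nothing about the set. Either kind of array weights called 8 members, beside 5532 (planned) and 4488 (gene by gene) of all genes.

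In TBI+DEIX against control, Slc2a1, Slc2a3, Hk3, Pgk1, Eno1, Pkm and Ldha rose. These 7 of 10 calls stand beside 30.0% of all genes called and 16.9% called higher. All 10 differences were above 0, from 0.10 for Hk2, which turned below 0 on the TPM scale, to 1.43 for Slc2a1, with a median of 0.71 beside 0.02 over all genes. Groups did not overlap in 7 of 10, all higher in TBI+DEIX, against 23.9% of all genes. Slc2a1, Slc2a3, Eno1 and Pkm were called in all 14 alternatives other than array weights. The call of Hk3 held in 5 of them, and those of Pgk1 and Ldha in 13. Among the 14, median-ratio scaling changed the values little, with library factors of 0.985 to 1.01. Erythroid, B lineage and megakaryocyte markers fell in this contrast (13 of 20, 9 of 11 and 4 of 5 called lower, beside 13.1% of all genes), and 4 of 12 maturing neutrophil markers rose. On the TPM scale limma called 4 members, beside 1785 of all genes (3299 in the main fit), with Pgk1 at adjusted p = 0.0509 and Ldha at 0.0512. There the median of all genes moved by -0.11, and higher calls went from 56.2% to 30.6% of all calls.

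The interaction, the DEIX difference in irradiated mice minus that in unirradiated mice, was called for 0 of 10 members by limma and for 0.200% of all genes (0.191% higher). Pfkl was the 1 member with an unadjusted p under 0.05 by limma, beside 7.5% of all genes. It was at -0.43 with a 95% interval from -0.78 to -0.08 and adjusted p = 0.535. The interval of Slc2a1 ran from -0.67 to 0.39 and that of Slc2a3 from -0.22 to 0.72, so differences of these sizes in either direction lay within the intervals. Over all genes 22 were called, and 331 without TBI+DEIX replicate 1, where limma again called 0 members. The contrasts against control share the control libraries, and the contrasts with TBI+DEIX share those, so their values are not independent of each other.

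**Figure D2:**
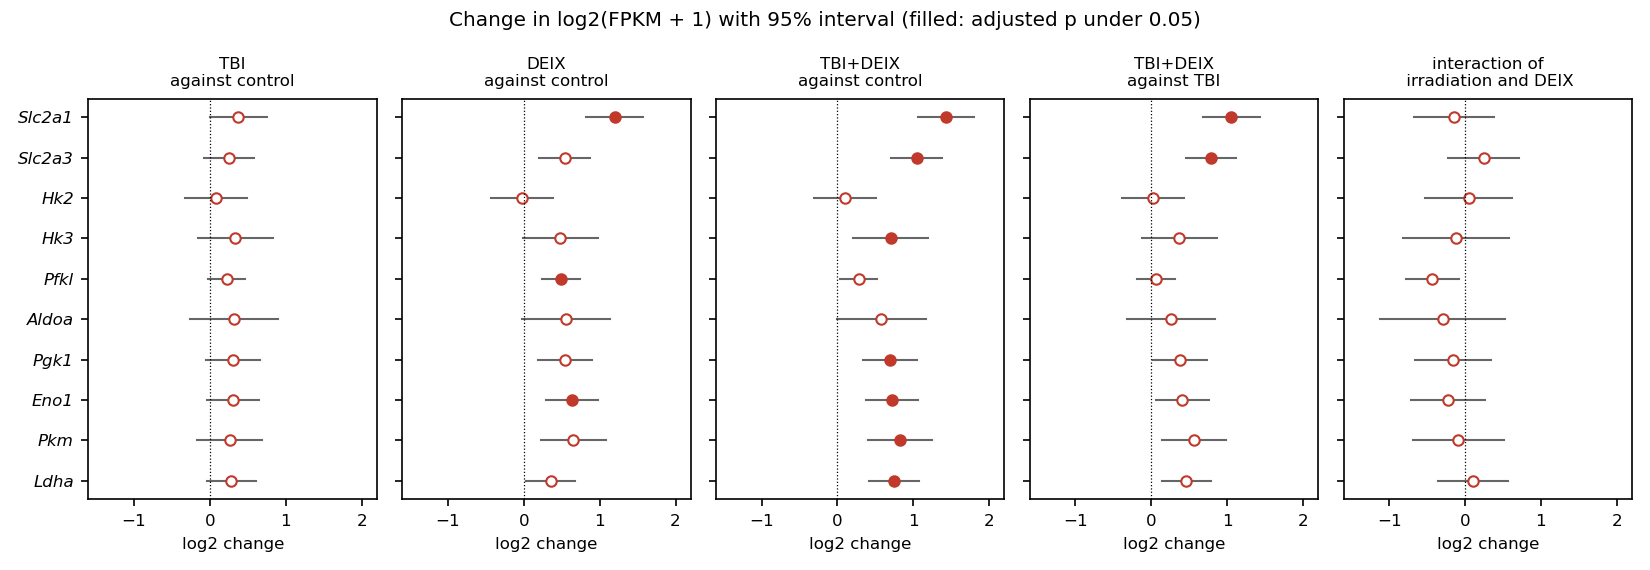
Difference in log2(FPKM + 1) of each gene in the 5 contrasts (horizontal axis), with 95% intervals from limma and filled points for an adjusted p under 0.05. The filled points number 0, 3, 7, 2 and 0 from left to right, and Hk2 is near 0 in each panel.

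Among 19 other glycolysis genes, 16 were tested, and Hkdc1, Pgk2 and Eno2 were under 1 FPKM in all 12 libraries. In TBI+DEIX against control, 5 of the 16 rose and 2 fell, beside the 30.0% of all genes called. Gpi1, the isomerase after hexokinase, rose by 1.11 (adjusted p = 0.00148), from a mean of 358 to 787 FPKM, and was at 975 FPKM in TBI+DEIX replicate 1. Gapdh, which makes NADH, rose by 0.82 (adjusted p = 0.00895) from 1108 to 1957 FPKM. Hk1, Pgam1 and Pfkp rose by 0.66, 0.64 and 0.62. Ldhb, the lactate dehydrogenase subunit of oxidative tissues, fell by 0.93 (adjusted p = 0.0206), from 22.8 to 11.7 FPKM, and Pgam2, the muscle mutase at 1.11 FPKM in control, fell by 0.65.

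Hk1 was the one glycolysis enzyme that rose in TBI against control, by 0.63 (adjusted p = 0.00673). It was at 51.0, 47.4 and 46.0 FPKM in control and 70.9, 72.5 and 82.2 in TBI, and the groups did not overlap. Pgam2 fell by 0.79 in that contrast, and 2 of 16 were called in all, beside 3.99% of all genes. In DEIX against control Hk1 rose by 0.41 and Gpi1 by 0.67, again 2 of 16, beside 7.24% of all genes. In TBI+DEIX against TBI and in the interaction limma called 0 of 16, with 6 and 2 at an unadjusted p under 0.05, beside 27.2% and 7.5% of all genes. Reads of Gapdh, Eno1, Pgk1, Aldoa, Ldha and Pkm can also map to near-identical processed copies, and how the authors' counting treated such reads is not given in the sources used here.

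**Figure D3:**
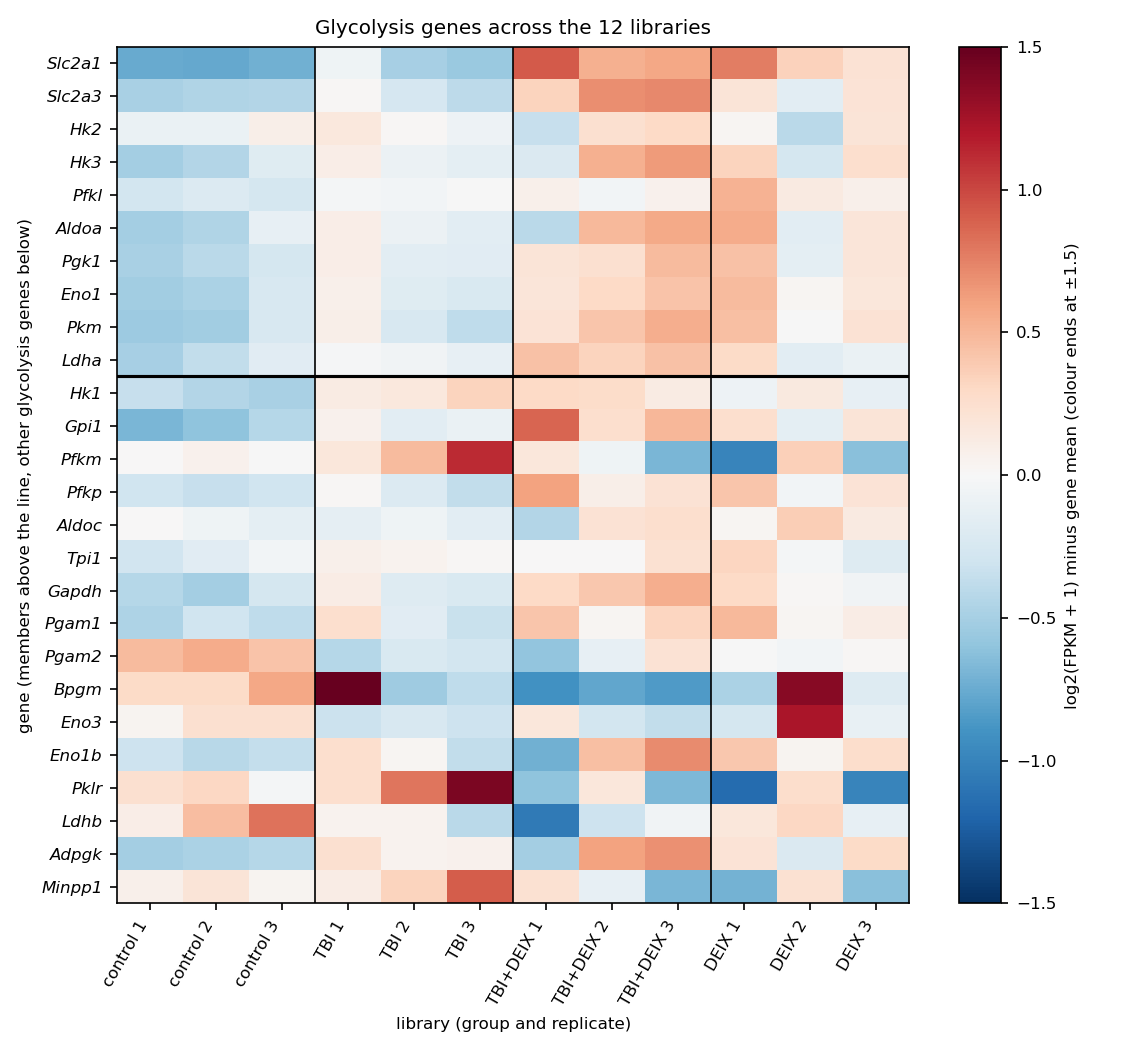
Difference of log2(FPKM + 1) from each gene's mean over 12 libraries (colour, ending at ±1.5), for the 10 members above the line and the 16 other tested glycolysis genes below it. Control is below the mean in most members, while Pgam2 and Ldhb are above it there.

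Other genes around glycolysis were read from lists of carriers, regulators, pyruvate entry and the pentose phosphate pathway. In TBI+DEIX against control, 4 of 8 regulators were called, beside 30.0% of all genes. Pfkfb4 and Pfkfb3, which make or remove the activator of phosphofructokinase, rose by 0.93 (adjusted p = 0.00194) and 0.64, Pfkfb2 rose by 0.57, and G6pc3, a glucose 6-phosphatase needed by neutrophils, fell by 0.61. Pfkfb4 was at 37.8, 39.5 and 39.3 FPKM in control and 55.4, 46.1 and 44.1 in TBI. It was at 58.3, 83.9 and 86.2 FPKM in TBI+DEIX and 63.7, 50.1 and 66.6 in DEIX. All TBI+DEIX libraries exceeded all TBI libraries, and Pfkfb4 also rose in TBI+DEIX against TBI (0.63, adjusted p = 0.0383) and in DEIX against control (0.61, adjusted p = 0.0457).

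Of 8 tested carriers, 3 were called in TBI+DEIX against control, a share near the 30.0% of all genes, with a median difference of -0.26 and 6 of 8 below 0. Slc16a3, the lactate exporter MCT4, rose by 1.00 (adjusted p = 0.0295), and it was at 116, 289 and 263 FPKM in TBI+DEIX and 109, 98.2 and 102 in control. Slc2a9 rose by 0.69 and Slc2a4 fell by 1.25. Of 12 tested genes of pyruvate entry to mitochondria, 4 were called there, again near the share of all genes: Mpc1, a subunit of the mitochondrial pyruvate carrier, rose by 0.43, and Pdk2, Pdp2 and Pdhb fell by 1.10, 0.56 and 0.33. Pdk2, a kinase that inhibits pyruvate dehydrogenase, also fell by 0.79 in TBI against control.

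In the pentose phosphate pathway, which branches off after hexokinase and makes NADPH, 4 of 8 genes were called in TBI+DEIX against control, beside 30.0% of all genes. G6pdx, its first enzyme, rose by 1.42 (adjusted p = 0.00135). It was at 167, 163 and 169 FPKM in control and 321, 255 and 214 in TBI. It was at 365, 434 and 560.1 FPKM in TBI+DEIX and 428, 239.6 and 313 in DEIX, and control lay below every other library. Pgd and Tkt rose by 0.75 and 0.77, and Pgls fell by 0.71. In DEIX against control G6pdx rose by 0.93 (adjusted p = 0.0344) and Pgls fell by 0.59.

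Hif1a, the oxygen-regulated subunit of HIF-1, was higher in both groups given DEIX. It was at 21.9, 20.8 and 18.1 FPKM in control and 25.5, 21.1 and 19.2 in TBI. It was at 44.0, 36.1 and 30.5 FPKM in TBI+DEIX and 37.4, 29.6 and 38.5 in DEIX. No treated library overlapped a library without DEIX. Hif1a rose by 0.76 ± 0.16 (log2, SE) in DEIX against control, adjusted p = 0.0196, by 0.72 ± 0.16 in TBI+DEIX against TBI, adjusted p = 0.0248, and by 0.82 ± 0.16 in TBI+DEIX against control, adjusted p = 0.0033. Of 7 tested genes of the HIF pathway, 3 were called in TBI+DEIX against control (Hif1a, Arnt and Hif1an; 30.0% of all genes), 2 in DEIX against control (Hif1a and Egln3; 7.24% of all genes) and Hif1a alone in TBI+DEIX against TBI (8.10%). The protein and its activity were not measured.

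Of 13 tested HIF targets outside glycolysis, 4 rose and 1 fell in TBI+DEIX against control, where 30.0% of all genes were called and 16.9% called higher. Vegfa, a vascular growth factor, rose by 0.87 (adjusted p = 0.00101), Bhlhe40 by 0.90, Ero1l by 0.83 and Mxi1 by 0.65, and Car9 fell by 0.51. Limma called 0 of 13 in the other 4 contrasts, with 5 at an unadjusted p under 0.05 in TBI against control, 7 in DEIX against control, 2 in TBI+DEIX against TBI and 2 in the interaction. The shares of all genes at that p were 18.1%, 24.7%, 27.2% and 7.5% in the same order. The median difference in TBI+DEIX against control was -0.01, beside 0.02 over all genes.

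The calls of these lists differed in how far they rested on single libraries, and calls over all genes changed in the same fits. In TBI+DEIX against control the latter were 2004 to 4232 on leaving out 1 library, beside 3299 in the main fit. Of the 30 calls in TBI+DEIX against control, 17 held on leaving out any 1 library of the compared groups, among them Hk1, Gpi1, Gapdh, Pfkp, Pfkfb3, Pfkfb4, G6pdx, Tkt, Pdk2, Pdp2, Hif1a, Vegfa and Mxi1. The calls of Arnt and Bhlhe40 were lost without any 1 control library, that of Hif1an without any 1 of the 6, that of Ldhb without control replicate 2 or 3, that of Pgam1 without control replicate 1 and that of Pgam2 without control replicate 2. Those of Slc2a4, Slc2a9 and Pfkfb2 were lost without any control library or TBI+DEIX replicate 1 or 3, those of Slc16a3 and Pdhb without any control library or TBI+DEIX replicate 2 or 3, that of Mpc1 without any control library or TBI+DEIX replicate 3, and that of Pgd without control replicate 1 or 2 or TBI+DEIX replicate 2 or 3. The calls of Hif1a and Pdp2 in TBI+DEIX against TBI were lost without TBI replicate 2 or 3 or TBI+DEIX replicate 3, and that of Pfkfb4 without any of these or TBI+DEIX replicate 2. Over all genes calls went from 891 to 345, 5, 51 and 956 without these libraries, in that order. In DEIX against control, all 7 were lost without any control library or DEIX replicate 1 or 3, with Hif1a at adjusted p of up to 0.0919, and Hk1 and Pgls also without DEIX replicate 2. Calls over all genes fell from 796 to between 146 and 218 without those libraries, and were 938 without DEIX replicate 2. In TBI against control the call of Hk1 held throughout, and those of Pgam2 and Pdk2 were lost without any 1 of the 6 libraries. There, calls over all genes fell from 439 to between 153 and 259.

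Cell markers moved between the groups as well. The summed level of 12 maturing neutrophil markers ranged from 22162 to 30857 FPKM in control and from 25966 to 32156 in TBI. It ranged from 20804 to 53151 FPKM in TBI+DEIX and from 26392 to 36802 with DEIX alone, and no marker was under 1 FPKM in all libraries. Of these 12, 4 were called in TBI+DEIX against control, all higher (Cxcr2, Ltf, Mmp9 and Padi4), beside 30.0% of all genes called and 16.9% called higher, and limma called 0 in the other 4 contrasts. Of 20 erythroid markers, 13 fell in TBI+DEIX against control, where 13.1% of all genes were called lower, with summed levels of 5554 to 8580 FPKM in control and 555 to 2643 in TBI+DEIX. The erythroid sums were 2993 to 13060 FPKM in TBI and 2222 to 12236 in DEIX. Against TBI, 7 erythroid markers fell in TBI+DEIX and 19 of 20 did not overlap, all lower, beside 3.41% of all genes called lower and 12.7% lower without overlap. Of 11 B lineage markers, 9 fell in TBI+DEIX against control, with sums of 412 to 497 FPKM in control and 8.21 to 189 in TBI+DEIX. B lineage sums were 31.7 to 379.8 FPKM in TBI and 66.1 to 103 in DEIX. With DEIX alone all 11 lay below control without overlap, beside 17.2% of all genes. By limma all 11 had an unadjusted p under 0.05 there, beside 24.7% of all genes, and 2 were called. In TBI against control 2 were called with a median difference of -1.64. The 11 monocyte and macrophage markers summed to 2037 to 2073 FPKM in control, 1363 to 2137 after irradiation alone, 776 to 2688 in TBI+DEIX and 2337 to 2686 with DEIX alone. Of these 11, 3 rose and 4 fell in TBI+DEIX against control, beside 16.9% and 13.1% of all genes, and Cd14 rose while Fn1 and Irf8 fell in TBI+DEIX against TBI. Vcan rose in TBI against control. The part of these markers in the glycolysis results was not tested. In TBI+DEIX replicate 1, the shallowest library by the steps of low values, the neutrophil sum was below every control library. In that library Hk3 and Aldoa lay within the control range, Hk2 below it and the other members above it. The share of all genes outside the control range in this 1 library was not computed, so these positions are a description only. Their relation to the neutrophil sum was not tested.

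**Figure D4:**
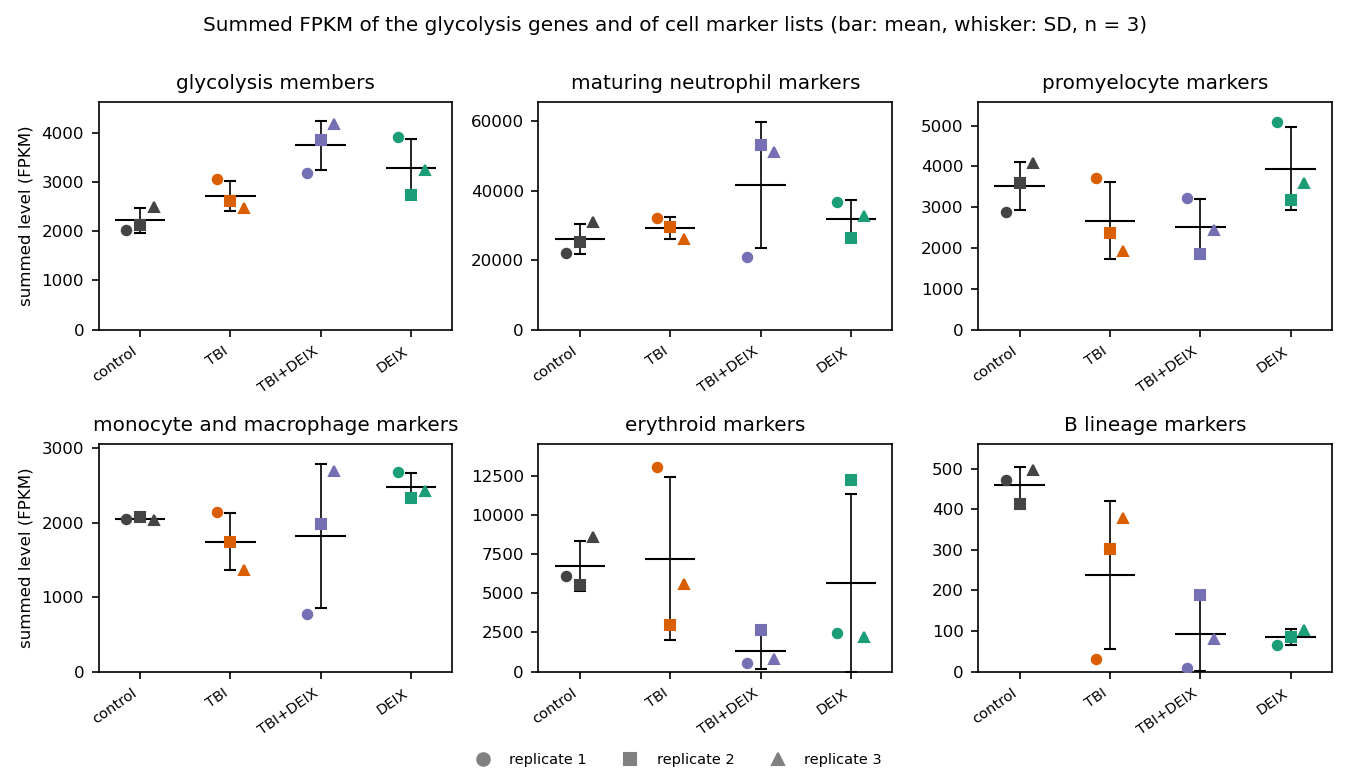
Summed FPKM of the 10 glycolysis genes and of 5 marker lists in the 12 libraries by group, with the mean as a bar and the SD as a whisker (n = 3). The glycolysis sum is 2035 to 2503 FPKM in control and 3191 to 4182 in TBI+DEIX, and TBI+DEIX replicate 1 is low for neutrophil and monocyte markers.

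The 10 genes together took 0.347% to 0.455% of a library's summed FPKM in control and 0.493% to 0.649% in TBI+DEIX. That sum contains S100a8, S100a9 and Ngp, neutrophil genes listed at 0 in 2, 4 and 5 libraries. Without them the share was 0.42% to 0.455% in control, 0.507% to 0.582% in TBI, 0.531% to 0.706% in DEIX and 0.649% to 0.747% in TBI+DEIX. The control libraries lay below all others and TBI+DEIX above TBI.

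Across the 12 libraries most members varied together, and Hk2 the least on average. As a description, the Pearson r of log2(FPKM + 1) over 12 libraries had a median of 0.84 in 45 pairs, and a median of 0.41 in the 9 pairs with Hk2. Hk2 reached 0.74 with Hk3 and 0.71 with Aldoa, while the lowest pair without Hk2, Slc2a3 with Pfkl, was at 0.48. The highest was 0.99, for Eno1 with Pkm, and the lowest -0.03, for Hk2 with Pfkl. The points share libraries, depth and the group differences. Among all genes tested, those nearest to Slc2a1 were Pirb, Emilin2 and Sbno2 (r of 0.98, 0.98 and 0.98), and those nearest to Slc2a3 were N4bp1, Kdm6b and Mmp9 (0.99, 0.99 and 0.99). Hp was nearest to both Eno1 and Pkm (0.99 and 0.99), Vim to Pgk1 (0.98), Erich1 to Ldha (0.99), Adprh to Aldoa (0.99) and Ubtd1 to Hk3 (0.99). Ankrd12 was nearest to Hk2 (0.96) and Gpld1 to Pfkl (0.92).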

How the data were processed

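A strand-keeping MGI kit turned total marrow RNA into sequencing libraries, per the labels' protocols. The authors deposited FPKM values per gene and library, a table that holds no counts. The submitters' processing notes name STAR 2.6, Cufflinks 2.2.1 and mm10, without their roles. All 21853 identifiers matched GENCODE vM21, from which symbols and GRCm38 coordinates were taken.

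The 10994 genes tested had 1 FPKM or more in 3 or more of the 12 libraries. Values were taken as log2(FPKM + 1), which understates changes of low genes, and fitted with limma 3.58.1 in R 4.3.3 (4 group means, mean-variance trend, 8 residual degrees of freedom). P-values were adjusted by Benjamini-Hochberg over all tested genes and called under 0.05. The fit was tested on simulated data. The 5 contrasts, and the alternatives of pseudocount, filter, scaling, fitted groups, replicate block, array weights and left-out libraries, are given in the text. As the values are not counts, no count model was used.

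The 10 members and all gene lists (7 around glycolysis, 7 of cell markers, of which 1 of 5 promyelocyte, 4 of 10 T and NK cell and 4 of 5 megakaryocyte markers were called lower in TBI+DEIX against control, beside 13.1% of all genes) were chosen with earlier results of these data known. A few genes of the lists are not reported here. Named genes were the members, called genes of the lists, up to 3 genes of highest level per list, and for each member the 3 genes most alike, not all of which are given. Promoter windows came from RefSeq (GRCm38.p6), and motifs were searched with Python 3.11.15 and pandas 2.3.3.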

Additional observations from a re-analysis of the deposited data

How the results depend on the processing

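Over the alternatives, the members' median difference ranged from 0.22 to 0.37 in TBI against control, 0.39 to 0.68 in DEIX against control, 0.26 (TPM scale) to 0.55 in TBI+DEIX against TBI and 0.58 to 0.88 in TBI+DEIX against control. In the interaction it was -0.13, ranged from -0.25 to 0.013, and was above 0 without TBI+DEIX replicate 1 or DEIX replicate 1. Array weights were tried in 2 ways. The planned one (limma's default) did not converge and gave control replicate 2 a weight of 97.5; it called 10, 9, 8 and 1 members in TBI against control, DEIX against control, TBI+DEIX against TBI and the interaction, and 14, 12, 10 and 2 other glycolysis genes there, with 14 in TBI+DEIX against control. Weights estimated gene by gene, added after both results had been seen, reached 11.02 for control replicate 2, and called 9, 9 and 8 members and 11, 11 and 9 other genes in the first 3, 14 in TBI+DEIX against control and 1 in the interaction. Both called all 10 members, Hk2 among them, in TBI+DEIX against control. Both gave many more calls over all genes. In TBI against control, DEIX against control, TBI+DEIX against TBI, TBI+DEIX against control and the interaction the planned weights called 7017, 5249, 5532, 6866 and 1148 genes. Gene by gene these were 4218, 4508, 4488, 6187 and 532, beside 439, 796, 891, 3299 and 22 in the main fit. The 14 alternatives counted for single members therefore leave out both.

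The TPM scale called 1, 0 and 4 members in DEIX against control, TBI+DEIX against TBI and TBI+DEIX against control, and 1, 0 and 4 other glycolysis genes in TBI against control, DEIX against control and TBI+DEIX against control. Over all genes it called 253 in TBI against control, 282 in DEIX against control, 157 in TBI+DEIX against TBI and 1785 in TBI+DEIX against control. Without S100a8, S100a9 and Ngp it called 1 and 0 other genes in TBI and in DEIX against control, beside 295 and 419 of all genes. Compared groups alone gave 6 and 0 members in DEIX against control and TBI+DEIX against TBI, and 5 and 7 other genes in TBI and in DEIX against control. Over all genes that fit called 1417 in TBI against control, 2057 in DEIX against control and 0 in TBI+DEIX against TBI. The main fit called 439, 796 and 891. The count of other genes was 1 in TBI against control with a pseudocount of 0.1 or a mean FPKM of at least 5, beside 356 and 134 of all genes. In DEIX against control it was 1 with a pseudocount of 0.1, with no filter or with the replicate block, beside 669, 805 and 640 of all genes. With median-ratio scaling it was 0 there, beside 704 of all genes. The cause was not tested.

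Same-numbered libraries did not deviate together in every pair of any contrast, so the numbers were not read as pairs. With the replicate number as a block, limma called 0, 2, 2, 6 and 0 members in TBI against control, DEIX against control, TBI+DEIX against TBI, TBI+DEIX against control and the interaction. Over all genes it called 378, 640, 474, 3000 and 20 in the same order. Eno1 was lost in DEIX against control (adjusted p = 0.06) and Hk3 in TBI+DEIX against control (adjusted p = 0.0505).

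Leaving out 1 library gave 1 to 5 members in DEIX against control, 0 to 6 in TBI+DEIX against TBI and 6 to 8 in TBI+DEIX against control. Over all genes the same fits gave 146 to 938, 5 to 2836 and 2004 to 4232 calls in these contrasts. For other glycolysis genes the counts were 1 to 1 in TBI against control, 0 to 3 in DEIX against control, 0 to 4 in TBI+DEIX against TBI and 0 to 1 in the interaction. All genes had 153 to 259 calls in TBI against control and 4 to 331 in the interaction. Reversed signs were all of uncalled values. Hk2 in DEIX against control was 0.13 and 0.12 with the 2 kinds of weights and -0.15 to 0.15 leaving out 1 library; in TBI+DEIX against TBI it was -0.10 and -0.078 on the TPM scales and -0.087 to 0.23; in TBI+DEIX against control it was -0.020 on the TPM scale and -0.012 to 0.31; in the interaction it was -0.020 on the TPM scale without the 3 genes and -0.12 to 0.25. Pfkl in TBI+DEIX against TBI was -0.066 and -0.043 on the TPM scales. Interactions leaving out 1 library were -0.30 to 0.15 for Hk3, which was 0.017 and 0.022 with weights, -0.27 to 0.018 for Slc2a1, -0.47 to 0.020 for Aldoa and -0.20 to 0.048 for Pkm. Total depth is unknown, which limits low genes the most.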
